A study of Mus musculus with 20 samples.

Results

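miR-143 and miR-145a are mouse microRNAs made from neighbouring hairpins, each of which yields a 5p and a 3p mature arm. They were taken by name from the deposited counts: mmu-miR-143-3p, mmu-miR-143-5p, mmu-miR-145a-5p and mmu-miR-145a-3p (written below without the species prefix), 4 of the 1886 mature miRNA lines listed for each library. The libraries are small RNA sequencing of primary midbrain neuron cultures from C57Bl6/J embryos of day 12.5, and DIV1 and DIV5 stand for 1 and 5 days in vitro. The 4 groups were DIV5 cultures with GDNF at 10 ng/ml (a neurotrophic factor named for its glial source, known for the survival of dopaminergic neurons), DIV5 control cultures without GDNF, DIV1 cultures with GDNF and DIV1 control cultures, with 5 libraries in each and 20 in all. In every group the cells came from the ventral mesencephalon, freed of meninges, and grew without serum in Neurobasal-A with B27 on poly-L-ornithine and laminin. The labels name a neuron culture and no sort for cell type, so the libraries hold whatever cells the dissection carried. They do not say that replicates came from separate animals or cultures, so p-values measure only the spread between these libraries.

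A microRNA is a short RNA that guides an Argonaute protein to complementary sites in messenger RNAs and lowers their translation or stability. miR-143 and miR-145 are best known from vascular smooth muscle and other mesenchymal cells, where serum response factor and myocardin drive their joint transcription. There they hold the contractile state of the cell, for example by repressing Klf4, Klf5 and Elk1. In brain they are usually read as miRNAs of mural cells, the smooth muscle cells and pericytes of vessel walls, rather than of neurons.

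On genome build mm10 (GRCm38) both hairpins lie on the minus strand of chromosome 18, per GENCODE vM21. Mir145a covers bases 61647825 to 61647894 (70 bp) and Mir143 covers bases 61649196 to 61649258 (63 bp), and 1301 bp lie between them. Mir143 therefore comes first in the direction of transcription. GENCODE places the long noncoding RNA Carmn, also on the minus strand, at 61649625 to 61665537, so that its gene model ends 366 bp before Mir143. The RefSeq model of Carmn, which also goes by the name Mir143hg (miR-143 host gene), runs from 61645878 to 61665538 and spans both hairpins. Mir145b, a relative of Mir145a, lies apart from them on the same chromosome at 69022199 to 69022273. Its mature miRNA was listed at 0 reads in all 20 libraries, which allows a level of up to 0.0763 CPM (reads per 1000000 miRNA reads) over the series (3 reads).

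The 20 libraries held 420118 to 4324505 miRNA reads each. The ranges were 1781030 to 3983722 at DIV5 with GDNF, 1061619 to 4324505 at DIV5 without, 420118 to 1761023 at DIV1 with GDNF and 686793 to 1557885 at DIV1 without. By library totals alone, without the TMM scaling factors used for the levels below, 1 read was worth 0.231 to 2.38 CPM. On that scale a count of 0 in a library allows up to 0.694 to 7.14 CPM (3 reads). These floors cover counting error only. The DIV5 libraries were not all alike. Replicates 1 and 2 of both DIV5 groups held 1061619 to 1907937 miRNA reads, against 2969524 to 4324505 in replicates 3 to 5. Reads that aligned outside any annotated miRNA made up 17.7 to 19.5% of the counted reads in replicates 1 and 2, against 9.51 to 13.3% in replicates 3 to 5. DIV5 control libraries 1 and 5 also stood apart: 16 and 19 of the 542 tested miRNAs lay more than 4-fold above the median of the rest of the group there, against 0 to 2 in DIV5 control libraries 2 to 4. Conversely 17, 7 and 11 lay more than 4-fold below it in libraries 2, 3 and 4, against 1 and 2 in libraries 1 and 5. Results that rest on these libraries are given with and without them.

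The 4 arms differed widely in level; mature miRNAs are of like length, so their reads are set side by side without a length correction. miR-143-3p, the mature guide strand of its hairpin, gave 50385 reads over the 20 libraries. miR-145a-5p, the guide strand of the other hairpin, gave 325 reads, miR-145a-3p gave 179, and miR-143-5p gave 33 with 0 reads in 6 libraries. The arms miR-143-3p, miR-145a-5p and miR-145a-3p passed the filter on low counts, 3 of 4. miR-143-5p did not, and its test without that filter is given with its values.

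miR-143-3p was among the 100 most abundant lines in every group and was lower at DIV5 than at DIV1. Its level in the DIV5 GDNF libraries 1 to 5 was 1756, 1378, 579, 399 and 177 CPM, scaled with TMM factors as are all levels here. In the DIV5 control libraries it was 1306, 1087, 531, 510 and 399 CPM. In the DIV1 GDNF libraries it was 3110, 2715, 3147, 2666 and 2842 CPM, and in the DIV1 control libraries 3767, 3343, 2705, 2879 and 3685 CPM. Every DIV5 library lay below every DIV1 library, and the GDNF and control libraries of a day overlapped. The group means were 858 ± 676 CPM at DIV5 with GDNF, 767 ± 403 at DIV5 without, 2896 ± 222 at DIV1 with GDNF and 3276 ± 474 at DIV1 without (SD, n = 5 each). By mean level miR-143-3p ranked 89, 95, 52 and 47 of the 1886 lines in those groups, and it took 0.0872, 0.0837, 0.272 and 0.305% of the miRNA reads. In the order of the means, the DIV5 groups, as neighbours, did not differ beyond their spread, and neither did the DIV1 groups.

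The replicate spread of miR-143-3p was wide at DIV5 and narrow at DIV1. The SD of its log2 level was 1.35 at DIV5 with GDNF and 0.75 at DIV5 without, against 0.11 at DIV1 with GDNF and 0.21 at DIV1 without. The median SD of the 439 tested miRNAs with a mean of at least 10 CPM was 0.29, 0.35, 0.25 and 0.25 in the same groups, and miR-143-3p was more variable than 98.6, 85.2, 12.5 and 39.9% of them. The DIV5 spread followed the replicate number: replicates 1 and 2 held 1087 to 1756 CPM and replicates 3 to 5 held 177 to 579 CPM, with both treatments in each range and no overlap. The highest DIV5 GDNF library was 9.93 times the lowest. Total reads and the share of reads outside miRNAs divided the DIV5 libraries at the same numbers, and their part in the level of miR-143-3p was not tested. The share of reads outside miRNAs was 16.5 to 20.5% at DIV1 with GDNF and 18.9 to 22.6% at DIV1 without.

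**Figure D1:**
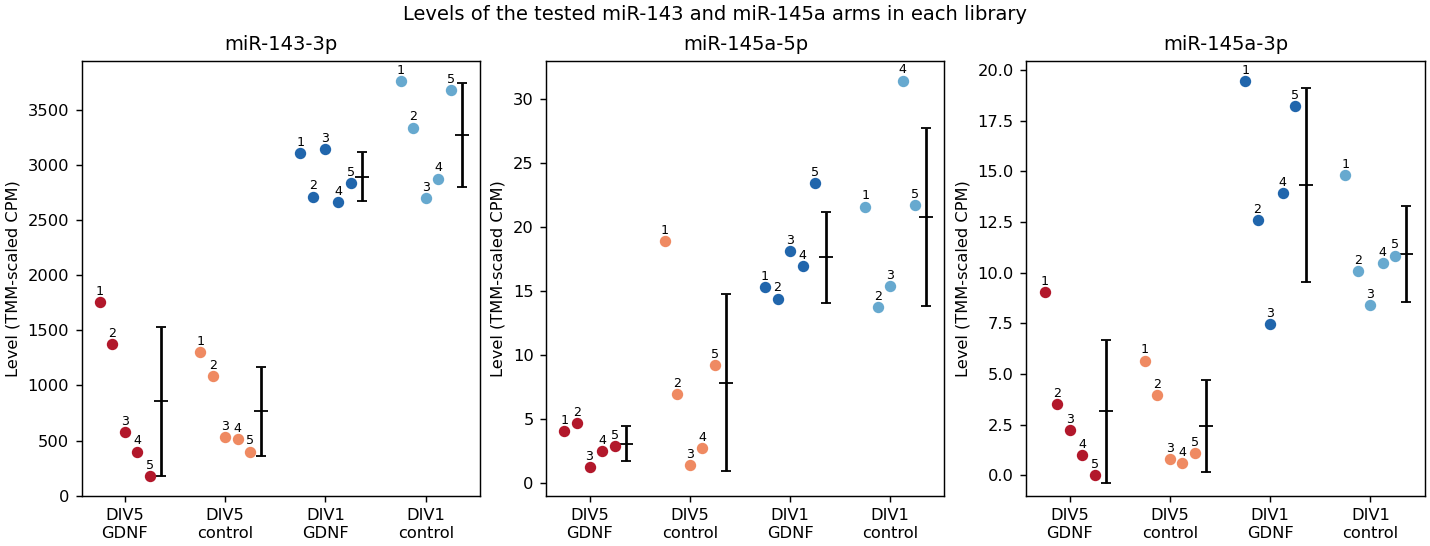
Level of the 3 tested arms in each library (TMM-scaled CPM, linear axes with a separate scale per panel), by group from DIV5 GDNF to DIV1 control. Points are libraries labelled with their replicate number and bars are the mean ± SD (n = 5); for miR-143-3p no DIV5 library reaches the lowest DIV1 value of 2666 CPM.

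**Figure D2:**
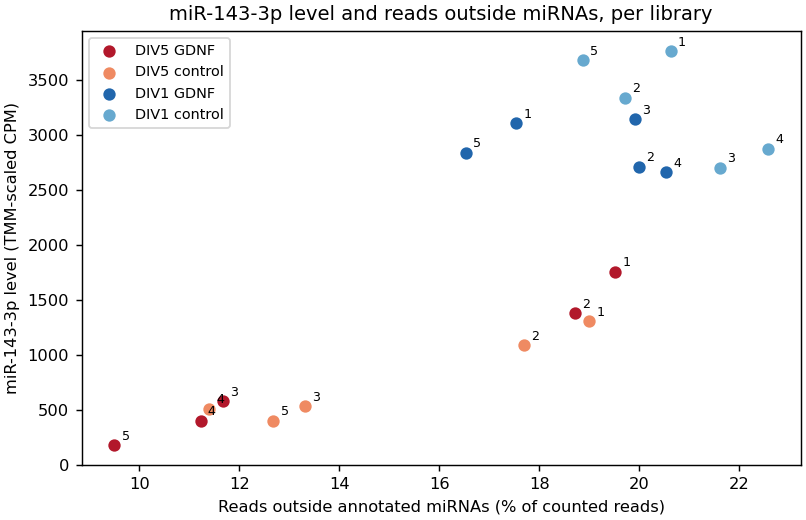
miR-143-3p level (TMM-scaled CPM) against the share of counted reads outside annotated miRNAs (%), 1 point per library labelled with its replicate number. DIV5 replicates 1 and 2 lie at 17.7 to 19.5% and 1087 to 1756 CPM, DIV5 replicates 3 to 5 at 9.51 to 13.3% and 177 to 579 CPM, and all DIV1 libraries at 2666 CPM or above.

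miR-145a-5p, the arm best known from contractile smooth muscle, was counted in few reads. The DIV5 GDNF libraries 1 to 5 held 8, 8, 5, 10 and 11 reads, or 4.01, 4.67, 1.24, 2.50 and 2.86 CPM. The DIV5 control libraries held 40, 7, 7, 9 and 42 reads, or 18.9, 6.91, 1.38, 2.73 and 9.17 CPM. All DIV5 GDNF libraries were low, and among the DIV5 controls libraries 1 and 5 were high, library 1 within the DIV1 range. At DIV1 the GDNF libraries held 11, 16, 29, 17 and 9 reads, or 15.3, 14.4, 18.1, 16.9 and 23.4 CPM. The DIV1 control libraries held 32, 15, 11, 24 and 14 reads, or 21.6, 13.7, 15.4, 31.4 and 21.7 CPM. The DIV1 groups overlapped throughout. The means were 3.06 ± 1.34 CPM at DIV5 with GDNF, 7.81 ± 6.92 at DIV5 without, 17.6 ± 3.54 at DIV1 with GDNF and 20.8 ± 6.95 at DIV1 without (SD, n = 5 each).

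miR-145a-3p, the other arm of that hairpin, was counted in still fewer reads. The DIV5 GDNF libraries 1 to 5 held 18, 6, 9, 4 and 0 reads, or 9.03, 3.50, 2.23, 0.998 and 0 CPM. The DIV5 control libraries held 12, 4, 4, 2 and 5 reads, or 5.66, 3.95, 0.791, 0.606 and 1.09 CPM. At DIV5 libraries 1 and 2 were again the high ones in both treatments, as for miR-143-3p. At DIV1 the GDNF libraries held 14, 14, 12, 14 and 7 reads, or 19.4, 12.6, 7.47, 13.9 and 18.2 CPM, and the control libraries held 22, 11, 6, 8 and 7 reads, or 14.8, 10.1, 8.39, 10.5 and 10.8 CPM. The DIV5 controls lay below all DIV1 controls, whereas DIV5 GDNF library 1 lay above DIV1 GDNF library 3. The means were 3.15 ± 3.54, 2.42 ± 2.26, 14.3 ± 4.78 and 10.9 ± 2.38 CPM at DIV5 with GDNF, DIV5 without, DIV1 with GDNF and DIV1 without (SD, n = 5 each).

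miR-143-5p, the passenger strand, was near the detection limit. It had 2 reads over the DIV5 GDNF libraries, 6 over the DIV5 controls, 16 over the DIV1 GDNF libraries and 9 over the DIV1 controls, and no library held more than 5. Its mean level was 0.217 ± 0.299, 0.601 ± 0.619, 4.13 ± 2.67 and 1.94 ± 1.99 CPM in those groups (SD, n = 5 each). In a fit without the filter on low counts, its log2 change at DIV5 against DIV1 was -3.98 with GDNF (edgeR adjusted p = 0.000333) and -1.86 without (edgeR adjusted p = 0.114). With GDNF this rests on 2 reads at DIV5 against 16 at DIV1, and the fitted size depends on the prior count.

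The first comparison asks how the miRNAs changed between the first and the fifth day in culture. All 3 tested arms fell, both with and without GDNF. With GDNF, miR-145a-5p was 5.95-fold lower at DIV5, miR-145a-3p 4.95-fold and miR-143-3p 3.38-fold. Without GDNF, miR-145a-3p was 5.71-fold lower, miR-143-3p 4.28-fold and miR-145a-5p 2.76-fold. Between the days many miRNAs changed: 52.4% of the 542 tested miRNAs were called with GDNF, 27.3% as lower, and 60.7% without GDNF, 29.3% as lower, at a Benjamini-Hochberg adjusted p under 0.05 in edgeR's quasi-likelihood test. A call alone thus does not set the pair apart from other miRNAs. The size of the change placed the arms in the lower tail of all tested miRNAs, with 0.369, 1.29 and 3.51% of them changing by a lower log2 value than miR-145a-5p, miR-145a-3p and miR-143-3p with GDNF. Without GDNF, 7.56, 0.923 and 2.77% had a lower log2 value than these arms. By p-value in the same test the arms stood less far out. In the same order they ranked 106, 189 and 174 of 542 with GDNF and 270, 228 and 171 without. The median log2 change over all tested miRNAs was 0.0017 with GDNF and 0.10 without.

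With GDNF, the log2 change of miR-143-3p at DIV5 against DIV1 was -1.76 (SE 0.458, adjusted p = 0.00365 in edgeR's quasi-likelihood test). That of miR-145a-5p was -2.57 (SE 0.527, edgeR adjusted p = 0.000429), and that of miR-145a-3p was -2.31 (SE 0.652, edgeR adjusted p = 0.00576). The DIV5 and DIV1 libraries did not overlap for miR-143-3p and miR-145a-5p, as for 36.9% of all tested miRNAs (18.3% lower at DIV5), and overlapped for miR-145a-3p. Without GDNF the log2 changes were -2.10 for miR-143-3p (SE 0.463, edgeR adjusted p = 0.00079), -1.46 for miR-145a-5p (SE 0.477, edgeR adjusted p = 0.0117) and -2.51 for miR-145a-3p (SE 0.691, edgeR adjusted p = 0.00377). There miR-143-3p and miR-145a-3p did not overlap between the days, as for 39.3% of all tested miRNAs (19.2% lower at DIV5), and miR-145a-5p did. In bulk libraries, fewer cells of a type and less of the RNA per cell cannot be told apart.

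The size of the fall depended on which DIV5 libraries were used. With DIV5 replicates 1 and 2 alone against all DIV1 libraries, miR-143-3p changed by -0.89 with GDNF (edgeR adjusted p = 0.000568) and -1.39 without (edgeR adjusted p = 1.38e-05) on the log2 scale. With replicates 3 to 5 alone it changed by -2.88 with GDNF (edgeR adjusted p = 3.49e-07) and -2.77 without (edgeR adjusted p = 4.73e-07). These sets follow the split of miR-143-3p itself at DIV5, which the labels do not explain. Each set therefore holds less spread than its group. Its p-values cannot be read as stronger evidence than those with all libraries. miR-143-3p was called in each set of replicates, and the change was smaller in replicates 1 and 2, the set with fewer reads and the larger share of reads outside miRNAs. For miR-145a-5p the replicates 1 and 2 gave -1.96 with GDNF, which passed (edgeR adjusted p = 0.00267), and -0.49 without (edgeR adjusted p = 0.305). For miR-145a-3p they gave -1.07 both with GDNF (edgeR adjusted p = 0.066) and without (edgeR adjusted p = 0.0755), so neither value passed. Without DIV5 control libraries 1 and 5, the change of miR-145a-5p in untreated cultures was -2.86 in place of -1.46, that of miR-145a-3p was -3.21 and that of miR-143-3p was -2.21.

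The second comparison asks what GDNF did on each day, which is the series' main question. No arm of the pair was called. At DIV5 the log2 change with GDNF was 0.16 for miR-143-3p (SE 0.446, edgeR adjusted p = 0.943), -1.37 for miR-145a-5p (SE 0.515, edgeR adjusted p = 0.174) and 0.49 for miR-145a-3p (SE 0.719, edgeR adjusted p = 0.873). Of the tested miRNAs 0.185% were called (1 of 542, or 3 with a replicate block) and 16.2% had an unadjusted p under 0.05. miR-145a-5p was among those under the unadjusted threshold (edgeR, unadjusted p = 0.0148), although the groups overlapped. That value rested on DIV5 control libraries 1 and 5, where miR-145a-5p was 18.9 and 9.17 CPM: without them the log2 change was 0.018 (edgeR adjusted p = 0.999). In the same 2 libraries miR-143-3p, at 1306 and 399 CPM, was the highest and the lowest of its group, and miR-145a-3p was 5.66 and 1.09 CPM. The part of these libraries' other high miRNAs in the result was not tested.

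At DIV1 the log2 changes with GDNF were -0.18 for miR-143-3p (SE 0.445), -0.26 for miR-145a-5p (SE 0.483) and 0.28 for miR-145a-3p (SE 0.624), with an edgeR adjusted p of 1.00 for each. Of the 542 tested miRNAs 0% were called and 1.29% had an unadjusted p under 0.05 (7 miRNAs). The difference between the GDNF effects at the 2 days was 0.34 for miR-143-3p, -1.11 for miR-145a-5p and 0.21 for miR-145a-3p on the log2 scale, with edgeR adjusted p-values of 0.938, 0.725 and 0.974. Here too 0% of the tested miRNAs were called (9.23%, or 50 miRNAs, had an unadjusted p under 0.05). With SEs of 0.445 to 0.912 in these 3 contrasts, a small change with GDNF was not detectable in the pair by this fit. With a replicate block within each day the SEs of miR-143-3p were smaller: 0.191 at DIV1, 0.195 at DIV5 and 0.273 for the difference. Its log2 changes were then -0.17, -0.12 and 0.052, and none was called (edgeR adjusted p = 0.998, 0.792 and 0.970). For the miR-145a arms the block gave SEs of 0.309 to 0.455 within a day, and none was called.

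**Figure D3:**
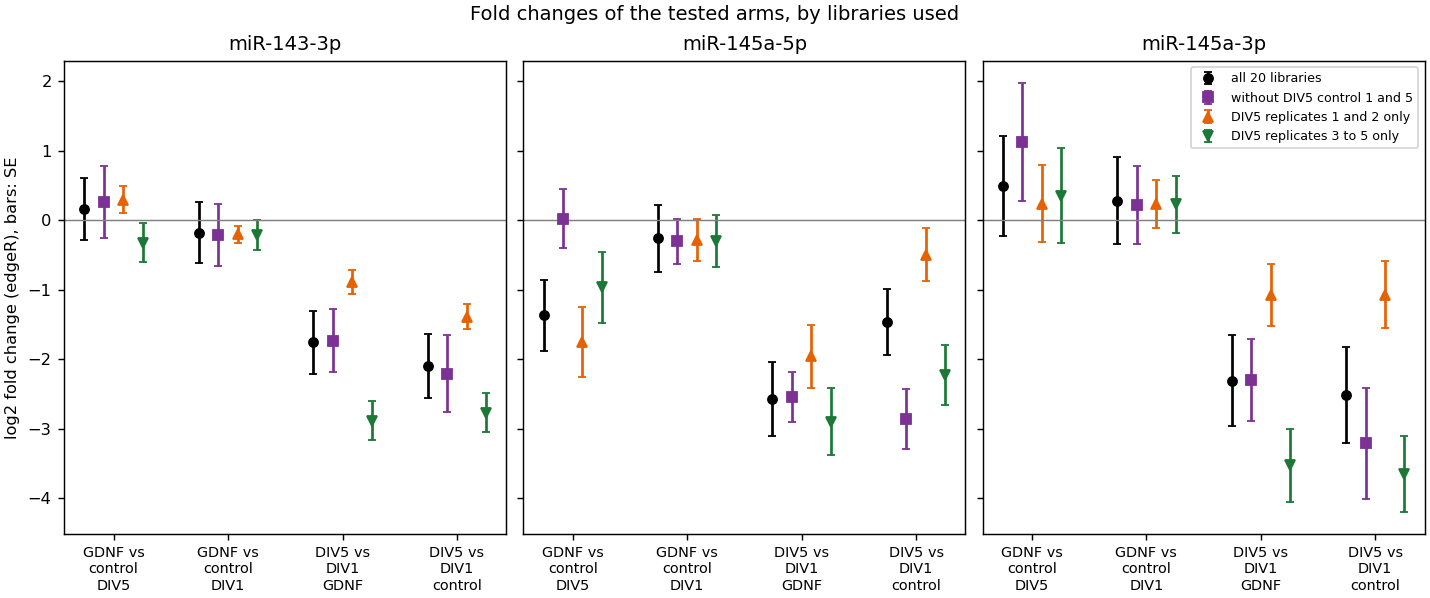
log2 fold change ± SE (edgeR) of the 3 tested arms in 4 comparisons, with all 20 libraries and with 3 other choices of DIV5 libraries. The DIV5 against DIV1 values lie below 0 under every choice, from -0.49 to -3.65, and the GDNF value of miR-145a-5p at DIV5 is -1.37 with all libraries and 0.018 without DIV5 control libraries 1 and 5.

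Ratios of reads within a library do not depend on how libraries are scaled. Summed over a group, there were 249 reads of miR-143-3p per read of miR-145a-5p at DIV5 with GDNF, 95.9 at DIV5 without, 172 at DIV1 with GDNF and 164 at DIV1 without. In single libraries the ratio ranged from 61.8 to 468, 43.5 to 383, 121 to 204 and 91.7 to 243 in these groups. The summed value at DIV5 without GDNF rested on control libraries 1 and 5, which held 40 and 42 of the 105 miR-145a-5p reads. Their ratios were 69.3 and 43.5, against 157, 383 and 187 in control libraries 2, 3 and 4. The spread was widest at DIV5, where the SD of the log2 ratio was 1.19 with GDNF and 1.20 without, against 0.30 at DIV1 with GDNF and 0.51 without. No difference in this ratio between groups passed: the mean log2 difference was 0.80 for GDNF against control at DIV5, 0.02 at DIV1, 0.41 for DIV5 against DIV1 with GDNF and -0.37 without (two-sided exact permutation tests, p = 0.31, 0.944, 0.508 and 0.548). After adjustment over the 12 ratio tests the exact permutation p was 0.73 to 0.944. Without DIV5 control libraries 1 and 5 the mean log2 difference was 0.017 for GDNF against control at DIV5. For DIV5 against DIV1 without GDNF it was then 0.41, and neither passed.

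The minor arms were set against the major arms in the same way. miR-145a-3p amounted to 88.1% of the miR-145a-5p reads at DIV5 with GDNF, 25.7% at DIV5 without, 74.4% at DIV1 with GDNF and 56.2% at DIV1 without. miR-143-5p amounted to 0.0191, 0.0596, 0.114 and 0.0571% of the miR-143-3p reads in those groups. The minor arm thus held a far larger share of its hairpin's reads for miR-145a than for miR-143 in every group. In single libraries the ratio of miR-145a-3p to miR-145a-5p ranged from 0 to 2.25 at DIV5 with GDNF, 0.119 to 0.571 at DIV5 without, 0.414 to 1.27 at DIV1 with GDNF and 0.333 to 0.733 at DIV1 without. At DIV5 without GDNF it was 0.3 and 0.119 in control libraries 1 and 5, which held most of the miR-145a-5p reads. In control libraries 2, 3 and 4 it was 0.571, 0.571 and 0.222. None of the 8 tests of these ratios passed after adjustment, and the exact permutation p closest to the threshold was 0.0476 before adjustment and 0.524 after it, for miR-143-5p against miR-143-3p between the days with GDNF (log2 difference -1.64). With 5 libraries against 5, no exact p below 0.00794 is possible.

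**Figure D4:**
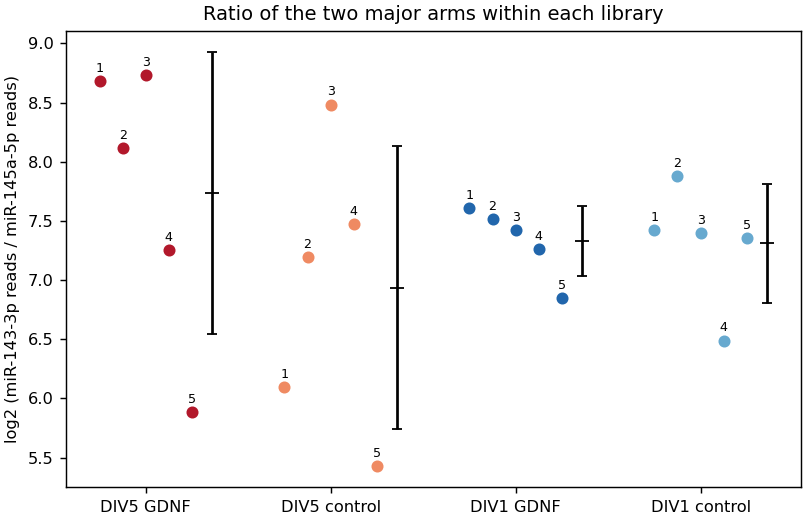
log2 ratio of miR-143-3p reads to miR-145a-5p reads in each library, by group; points are libraries labelled with their replicate number and bars are the mean ± SD (n = 5). DIV1 libraries lie close together, with an SD of 0.30 with GDNF and 0.51 without, and DIV5 libraries lie far apart, with an SD of 1.19 with GDNF and 1.20 without.

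Within groups, the arms did not all vary together. After each group's mean was subtracted from the log2 levels, Pearson's r over the 20 libraries between miR-143-3p and miR-145a-3p was 0.915 (Spearman's rho 0.817), and between miR-143-3p and miR-145a-5p it was 0.393 (rho 0.426). The arms of the miR-145a hairpin gave r = 0.488 with each other. These values are descriptions: the points share library, depth and cell make-up, and with 0 to 42 reads a library the miR-145a arms carry large counting error.

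Among 438 tested miRNAs with a mean of at least 10 CPM, those most like miR-143-3p within groups were miR-5131 (r = 0.884), miR-30c-2-3p (0.883), miR-3099-3p (0.876), miR-423-5p (0.858) and miR-6538 (0.834). The median over all 541 tested miRNAs was -0.0026. Without DIV5 control libraries 1 and 5 their r was 0.829 to 0.880. Over the 20 libraries without subtracting group means, r was 0.165 for miR-5131, 0.894 for miR-30c-2-3p, -0.111 for miR-3099-3p, 0.961 for miR-423-5p and 0.899 for miR-6538. The within-group values weigh the DIV5 libraries most, where the SD of miR-143-3p was 1.35 and 0.75, against 0.11 and 0.21 at DIV1. miR-145a-3p, which had a mean of 7.70 CPM and so was not among the 438, came closer still (r = 0.915). The mature sequences of the 5 miRNAs named above are shown because their pattern within groups came closest among the 438. They are from RefSeq on GRCm38.p6, written 5′ to 3′ with the seed (bases 2 to 8) in capitals.
miR-5131: cGGCGCCCcacggagccccgagc
miR-30c-2-3p: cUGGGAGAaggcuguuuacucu
miR-3099-3p: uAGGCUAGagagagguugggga
miR-423-5p: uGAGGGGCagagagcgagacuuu
miR-6538: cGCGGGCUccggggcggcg
The 5 have 5 different seeds and lie on 5 different chromosomes (14, 1, 7, 11 and 12), so neither a seed nor a chromosome joins them. The miRNAs most like miR-145a-5p were miR-135a-1-3p (r = 0.813), miR-3475-3p (0.805), miR-183-5p (0.801), miR-877-5p (0.785) and miR-184-3p (0.780). None of the 5 was in the set most like miR-143-3p, and without DIV5 control libraries 1 and 5 their r was 0.568 to 0.766.

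The name of a smooth muscle pair was set against lists of miRNAs known from other cell types. Of 17 arms of the muscle miRNAs miR-1, miR-133, miR-206, miR-208 and miR-499, which mark striated muscle, 8 had 0 reads in all libraries and 1 passed the filter on low counts. The summed level of the list was 7.01 to 12.5 CPM at DIV5 with GDNF, 7.71 to 17.8 at DIV5 without, 1.39 to 11.2 at DIV1 with GDNF and 1.40 to 10.1 at DIV1 without. The tested arm, miR-208b-3p, encoded in an intron of the slow myosin gene Myh7, averaged 6.42 ± 1.5, 7.38 ± 3.75, 3.36 ± 3.45 and 2.92 ± 1.65 CPM in the same groups (SD, n = 5 each) and was not called between the days. The 17 listed arms thus had a summed level of at most 17.8 CPM in any library, where miR-143-3p had at least 177 CPM. How reads with several alignments were treated is not known, so this sum may be too low. It does not show that the listed miRNAs were absent.

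A list of 11 arms linked to smooth muscle growth and phenotype but found in many cell types had 10 tested arms. With GDNF 1 was called higher and 1 lower at DIV5 (median log2 change 0.047), against 25.1% higher and 27.3% lower over all tested miRNAs. Without GDNF 3 were called higher and 2 lower (median 0.0091), against 31.4% higher and 29.3% lower over all tested miRNAs. The most abundant, miR-26a-5p, was not called (log2 change -0.13 with GDNF and 0.0053 without). miR-130a-3p fell by 0.41 with GDNF (edgeR adjusted p = 0.00281) and by 0.27 without (edgeR adjusted p = 0.0332), a smaller change than that of the pair. Without GDNF this call was lost in 16 of 33 alternatives (edgeR adjusted p up to 0.936), 12 of them with a single library left out, and with GDNF in 2 of 33. Without DIV5 control libraries 1 and 5 the counts were 3 higher and 2 lower with GDNF, and 2 higher and 1 lower without GDNF.

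miR-126a-3p, the miRNA of endothelial cells, which line the vessels that mural cells surround, averaged 25.5 ± 6.60 CPM at DIV5 with GDNF, 33.6 ± 19.0 at DIV5 without, 59.7 ± 15.5 at DIV1 with GDNF and 93.7 ± 41.0 at DIV1 without (SD, n = 5 each). It fell by 1.22 on the log2 scale between the days with GDNF (edgeR adjusted p = 0.00576) and by 1.49 without (edgeR adjusted p = 0.000831). With DIV5 replicates 1 and 2 alone it did not pass, at -0.87 with GDNF (edgeR adjusted p = 0.125) and -0.93 without (edgeR adjusted p = 0.0821). Its other arm, miR-126a-5p, had 0 reads in all libraries. Within groups miR-126a-3p and miR-143-3p gave r = 0.411, a value above that of 84.1% of the tested miRNAs. Arms of other lists were as much alike: miR-142a-5p of blood cells gave r = 0.461, miR-128-3p of neurons 0.392 and the joined miR-199 line of mesenchyme 0.386.

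Of 7 mesenchyme and fibroblast arms, 5 were tested, none was called lower at DIV5, and 1 with GDNF and 2 without were called higher (25.1 and 31.4% of all tested miRNAs). With DIV5 replicates 3 to 5 alone, 1 was called lower without GDNF. In 2 of 3 other sets of DIV5 libraries only 1 was called higher without GDNF. miR-140-3p, best known from cartilage, was higher by 0.48 with GDNF (edgeR adjusted p = 0.00877) and by 0.45 without (edgeR adjusted p = 0.0112). Without GDNF this call was lost in 3 of 33 alternatives. The joined line of miR-199b-3p and miR-199a-3p, miRNAs of mesenchyme made with miR-214, averaged 320 ± 445, 145 ± 17.8, 302 ± 333 and 303 ± 329 CPM in the order DIV5 with GDNF, DIV5 without, DIV1 with GDNF and DIV1 without (SD, n = 5 each). Its log2 changes of 0.081 with GDNF and -1.07 without were not called, and with SDs that exceeded the mean in 3 groups it cannot be set beside the pair with any precision.

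Among 6 blood cell arms of the erythroid list, 3 were tested, of which 2 were called lower and 1 higher at DIV5 in both treatments. Of all tested miRNAs 27.3% were called lower and 25.1% higher with GDNF, and 29.3% lower and 31.4% higher without. miR-451a, of red blood cells, fell by 1.90 with GDNF (edgeR adjusted p = 0.00212) and by 2.10 without (edgeR adjusted p = 0.000837). With DIV5 replicates 1 and 2 alone its changes of -1.63 with GDNF (edgeR adjusted p = 0.066) and -1.34 without (edgeR adjusted p = 0.108) did not pass, and 1 arm of the list was called lower with GDNF and 0 without. The joined line of miR-486b-5p and miR-486a-5p was higher by 1.05 with GDNF (edgeR adjusted p = 7.84e-06) and by 0.80 without (edgeR adjusted p = 0.000142). Of 6 white blood cell and microglia arms 2 were tested. miR-142a-5p, of blood cells, was lower at DIV5, with log2 changes of -2.25 with GDNF (edgeR adjusted p = 0.000126) and -2.24 without (edgeR adjusted p = 0.000126). miR-155-5p fell by 1.71 with GDNF (edgeR adjusted p = 0.00111) and was at -0.41 without (edgeR adjusted p = 0.354); without DIV5 control libraries 1 and 5 both were called in both treatments. The summed level of the 6 listed white blood cell and microglia arms was 13.6 to 40.3 CPM at DIV5 with GDNF and 15.0 to 50.4 at DIV5 without. It was 83.2 to 130 at DIV1 with GDNF and 72.4 to 119 at DIV1 without.

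Of 7 arms of the neuron list 5 were tested, and 3 with GDNF and 4 without were called higher at DIV5, with a median log2 change of 1.31 and 1.36 and none lower. Of all tested miRNAs 25.1% were called higher with GDNF and 31.4% without. miR-128-3p, a miRNA enriched in neurons, was higher by 1.33 with GDNF (edgeR adjusted p = 0.00037) and by 1.61 without (edgeR adjusted p = 4.74e-05). miR-9-5p, of neural progenitors and young neurons, was not called (0.0017 with GDNF and -0.11 without). One arm, miR-138-5p, had 0 reads in all libraries. The summed level of the list overlapped between the days and took 64782 to 108010 CPM at DIV5 with GDNF, 73880 to 103323 at DIV5 without, 66039 to 90535 at DIV1 with GDNF and 56017 to 93493 at DIV1 without.

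Of the miRNAs named from the lists, miR-126a-3p, miR-451a, miR-142a-5p and miR-130a-3p were called lower at DIV5 in both treatments with all libraries, and the joined miR-486 line, miR-140-3p and miR-128-3p were called higher in both. The part of vessel wall, endothelial or blood cells in the fall of the pair was not tested, and these libraries hold no measure of mural cell genes. No arm of any list was called in the GDNF comparisons.

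**Figure D5:**
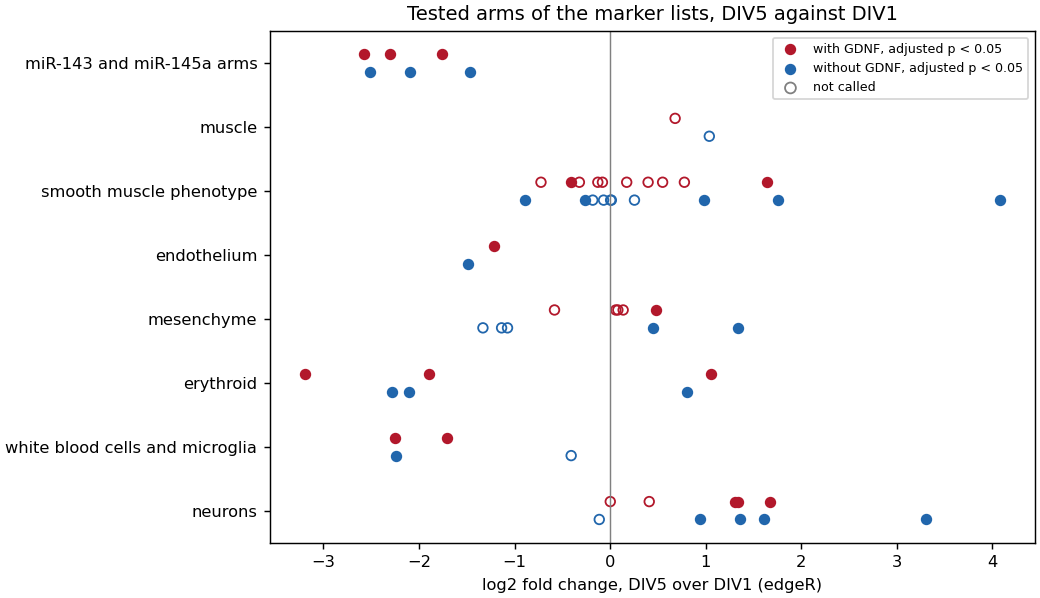
log2 fold change of DIV5 over DIV1 (edgeR) for every tested arm of the pair and of 7 marker lists, with GDNF in red and without GDNF in blue; filled points passed an adjusted p of 0.05 and open points did not. The 3 arms of the pair lie between -2.57 and -1.46, with miR-126a-3p at -1.22 and -1.49, while the neuron list has its median at 1.31 and 1.36.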

How the data were processed

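Each library came as 1 deposited table of counts, whole numbers of reads for every mature miRNA line, which the authors had not normalized. The submitters' processing notes name cutadapt 1.8.1, STAR 2.4.1d, HTSeq and genome build mm10; the miRNA annotation and HTSeq version are not given in the sources used here. The tally of reads without a feature (9.51 to 22.6% of counted reads) was left out, and the other tallies were 0, so how reads with several alignments were treated is not known.

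The members and lists were chosen with earlier results of these data known. edgeR 4.0.16 in R 4.3.3 (filterByExpr, TMM, robust glmQLFit, glmQLFTest) was run on the counts of all 20 libraries, with 1 coefficient per group and Benjamini-Hochberg adjustment over the 542 tested miRNAs, which held at least 99.9% of the reads of every library. The threshold was 0.05. An SE is the size of the log2 change divided by the square root of F. Ratios used log2((a + 0.5)/(b + 0.5)) and exact permutation tests (SciPy 1.17.1). Likeness used log2(CPM + 0.5). The named miRNAs are the members, the 2 most abundant tested arms of each list, all tested muscle and endothelial arms, and the 5 miRNAs most like each major arm. The fit was tested on simulated data with independent libraries. That test cannot show how the fit behaves where DIV5 libraries split by replicate number. Alternatives used other scalings, filters, DESeq2 1.42.0, limma voom 3.58.1, replicate blocks, other sets of DIV5 libraries and each library left out. The list counts for other sets of DIV5 libraries were added after seeing the data.

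Same-numbered libraries deviated together at DIV5 (r = 0.208 to 0.514, each of the 5 best with its own number) but not throughout at DIV1 (r = 0.00624 to 0.474). For DIV5 replicates 1 and 5 the lead over another number was slight (0.2078 against 0.2061, and 0.2624 against 0.2623). The main fit and the ratio tests did not pair libraries by number, and replicate blocks were among the alternatives. Any pairing by number rests on the data, since the labels give the numbers no meaning. No libraries of a group were near-identical (chi-square per degree of freedom at least 10.3).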

Additional observations from a re-analysis of the deposited data

How the results depend on the processing

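The fall of miR-143-3p between the days passed in all 33 alternatives with and without GDNF (log2 -2.88 to -0.89 and -2.77 to -1.39). miR-145a-5p without GDNF and miR-145a-3p in both treatments missed the threshold with DIV5 replicates 1 and 2 alone (-0.49, -1.07 and -1.07), which left 1 of the 3 arms called without GDNF. Counting error limits the miR-145a arms, and the lowest library totals were at DIV1. Library totals as the only scaling moved the median of all tested miRNAs by 0.25 without GDNF and 0.15 with GDNF between the days and by -0.10 for the difference of the GDNF effects. Against that median miR-143-3p was then at -2.23 and -1.79, compared with -2.20 and -1.76 under TMM, and 67.3 and 58.7% of the calls were higher, compared with 51.7 and 47.9%.

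None of the GDNF values of the pair was stable in sign except those at DIV1. miR-143-3p at DIV5 changed sign with limma voom (-0.14), with a replicate block within each day (-0.12) and with replicates 3 to 5 alone (-0.32), and its difference of GDNF effects with replicates 3 to 5 alone (-0.11). miR-145a-5p changed sign without DIV5 control libraries 1 and 5 (0.018, and 0.32 for the difference of GDNF effects). miR-145a-3p changed sign with limma voom (-0.16, and -0.32 for the difference) and with the block for the difference (-0.0073). The causes were not tested. With each library left out in turn, the GDNF value at DIV5 was -0.27 to 0.42 for miR-143-3p, -1.70 to -0.72 for miR-145a-5p and -0.36 to 1.17 for miR-145a-3p. miR-145a-5p passed only without DIV5 control replicate 3 (edgeR adjusted p = 0.0288; range 0.0288 to 0.688), so 0 to 1 of the 3 arms were called. The difference of GDNF effects was -0.081 to 0.63 for miR-143-3p and -0.62 to 0.92 for miR-145a-3p.

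The number of miRNAs called for GDNF at DIV5, 1 in the report, was 13 with a minimum mean of 10 CPM, 26 with DESeq2, 3 with the replicate block, 0 with the 2 groups alone, 0 without DIV5 control libraries 1 and 5, 4 with both the block and that removal, 2 with replicates 1 and 2 and 2 with replicates 3 to 5, and 0 to 43 with a library left out. For GDNF at DIV1 it was 2, and for the difference of effects 5, with the block and that removal; the difference gave 1 with replicates 3 to 5 and 0 to 1 with a library left out. The replicate block alone changed no other call of a named miRNA.

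Some values near 0 changed sign. The ratio of miR-143-3p to miR-145a-5p between the days without GDNF was 0.41 without DIV5 control libraries 1 and 5, and -0.76 to 0.00295 with a library left out; for GDNF at DIV1 it was -0.19 to 0.16. The ratio of miR-143-5p to miR-143-3p without GDNF was -0.28 with a pseudocount of 0.1 read, and -0.19 to 0.58 with a library left out, and that of miR-145a-3p to miR-145a-5p with GDNF was -0.995 to 0.42. Between the days miR-26a-5p was -0.073 without GDNF with replicates 3 to 5, and 0.022 and 0.14 with GDNF under library totals and without a filter (-0.039 to 0.085 without GDNF with a library left out). The joined miR-199 line was 0.026 without GDNF with the block and the 2 control libraries removed; with GDNF it was -0.26 with voom, -0.13, -0.17 and -0.20 with the 3 blocks, -1.20 with replicates 3 to 5 and -1.30 to 1.10 with a library left out. miR-155-5p without GDNF was 0.24 with replicates 1 and 2. miR-9-5p without GDNF was 0.13 under library totals, 0.097 without a filter, 0.038 without the 2 control libraries and 0.010 with replicates 1 and 2; with GDNF it was -0.016 with voom, -0.013 and -0.014 with blocks, -0.064 with replicates 1 and 2 and -0.051 to 0.13 with a library left out.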
